A study of Mus musculus with 6 samples.

Results

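Lung endothelial cells (ECs) were compared across birth, between a library of sorted cells from embryonic day 18.5 (E18.5) and a library of sorted cells from postnatal day 8 (P8). Cells were kept with at least 700 genes detected, 0.5 to 10% of their unique molecular identifiers (UMIs, each counting 1 captured mRNA) from mitochondrial genes, at least 3 UMIs of Pecam1, Cdh5 and Cldn5 together and at most 2 UMIs of Col1a1 and Col3a1 together. The rule gave 9083 ECs at E18.5, of 10020 barcodes, and 8291 at P8, of 9069 barcodes. Together they were 17374 of the 63659 barcodes of the series, in which 30998 cells passed the same rule. Just inside the endothelial limit, 27 cells at E18.5 and 26 at P8 held exactly 3 such UMIs, and just outside it 23 and 20 cells held 2. Both libraries came from mice carrying Cxcl12DsRed/+, an allele in which a red reporter takes the place of 1 Cxcl12 copy, so that both groups had only 1 working copy of the gene. Lungs of several animals were pooled, dissociated with collagenase and dispase, and sorted on the reporter and the endothelial surface protein CD31, without CD45 (blood cells) or EpCAM (epithelium). The protocol also names reporter-positive CD31-negative mesenchymal cells as collected, and ECs without the reporter were removed by the sort. The 2 libraries shared 25 barcode sequences. The same rule was applied to ECs of 3 further libraries used for reference. They were sorted ECs of E15.5 Cxcl12DsRed/+ mice (8911 cells), and unsorted E18.5 whole lung labelled Cxcl12 heterozygous control (1824 cells) and labelled Cxcl12 homozygous null (2721 cells). In the whole lung pair the targeted gene went against the labels, at 541 counts per 1000000 UMIs (CPM) of Cxcl12 in the library labelled null and 4.47 CPM in the library labelled control, and both serve here only as E18.5 lungs that were not sorted.

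At birth the lung fills with air, its fluid is cleared, oxygen tension rises and blood that had bypassed the fetal lung flows through its capillaries. In the mouse, alveoli then form by septation in the first weeks of life, while the capillary bed extends, with aerocytes and general capillary cells as its main cell states. A separate set of genes responds within minutes to the enzymes, warmth and shear of tissue dissociation. These are immediate early genes such as Fos, Jun, Egr1 and Atf3, which encode transcription factors, and heat shock genes such as Hspa1a, which encode chaperones. Some genes expected to move at birth, such as those induced by flow, steroid hormones or cytokines, overlap with these. Stress genes were therefore listed separately, and ratios were also taken by the level of stress genes in the cells.

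There was 1 library on each side, so no test was possible, and age, library and the sex mix of the pool cannot be told apart. The labels give no day of sorting. Each level is the gene's share of all UMIs summed over the ECs of a library, in CPM, with an exact Poisson 95% interval that covers counting error only. Differences are log2 ratios of P8 over E18.5 after 0.5 CPM was added to each level, over the 3681 genes at 50 CPM or more in at least 1 of the libraries. A gene was counted as different past a ratio of 2-fold. The EC totals were 58924065 UMIs at E18.5 and 61412611 at P8, the median cell held 5636 and 5631 UMIs, and the median numbers of genes were 2291 and 2370. Of the 3681 genes, 191 (5.19%) were at least 2-fold higher at P8 and 139 (3.78%) at least 2-fold lower, with a median log2 ratio of 0.09. For scale, sorted E18.5 ECs were set against whole lung E18.5 ECs. These matched in age but differed in sorting, in sex-linked genes (given below) and in other respects. Against the library labelled control, 103 of 3532 genes (2.92%) were higher in sorted ECs and 72 (2.04%) lower. Against that labelled null, 46 of 3452 (1.33%) were higher and 44 (1.27%) lower. The whole lung libraries set against each other, labelled control over null, gave 23 of 3353 (0.686%) and 6 (0.179%). P8 over the whole lung labelled control gave 333 of 3750 (8.88%) higher and 210 (5.6%) lower. Markers of endothelium were present in both groups. Of 12 endothelial markers outside the rule, 11 were tested, none of them past 2-fold, and their summed level was 6793 CPM and 7728 CPM in the E18.5 and P8 libraries. Summed markers of other cells were 675 and 539 CPM for epithelium, 292 and 303 CPM for mesenchyme, 81.1 and 35.8 CPM for immune cells, 11.5 and 8.83 CPM for pericytes, 7.14 and 4.71 CPM for platelets, and 1235 and 922 CPM for red blood cells. Of these lists, epithelium had 1 of 15 markers at or under 1 CPM in both libraries, mesenchyme 3 of 14, immune cells 6 of 12, pericytes 4 of 7, platelets 3 of 5 and red blood cells 2 of 8. Without the ECs that held at least 100 Sftpc UMIs or 2 UMIs of lymphatic markers, all 86 named genes past 2-fold were still past it, as they were with at least 6 endothelial and 0 collagen UMIs in a cell. The part of immune and red blood cell RNA in the ratios was not tested. Most of the epithelial signal was surfactant protein C, of which 10 cells at E18.5 and 5 at P8, each with at least 100 UMIs, held 96.3% and 97.4% of all UMIs.

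**Figure D1:**
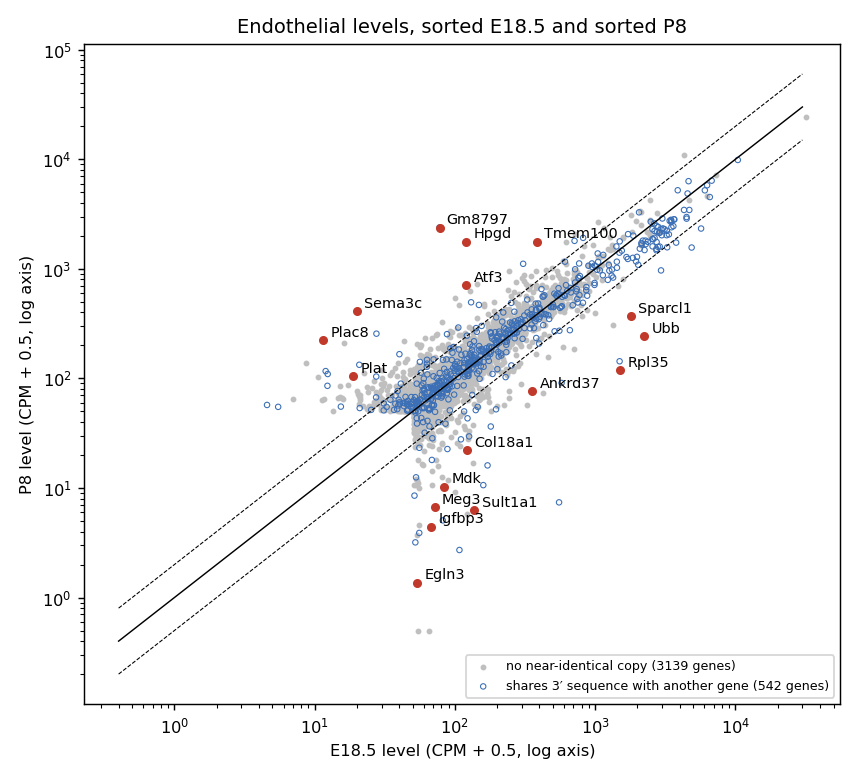
Level of each of the 3681 genes in ECs at E18.5 (x axis) and P8 (y axis), in CPM plus 0.5 on log axes, 1 library per axis, with the line of equality and dashed lines at 2-fold. Blue rings mark the 542 genes that share sequence near their 3′ end with another gene, and red points the genes named on the plot, such as Sema3c at 19.5 and 407 CPM and Egln3 at 53.5 and 0.863 CPM.

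The promoters of 4 genes picked as examples are shown first, each as the 250 bases before a RefSeq start site in build GRCm38.p6, 5′ to 3′ on the gene's strand. Egln3 and Ankrd37, both lower at P8, were chosen from the hypoxia genes, with matches to ACGTG, the core of the hypoxia response element, in capitals. Sgk1, higher at P8, is shown for the glucocorticoid-responsive genes, with its match to the palindromic glucocorticoid response element in capitals. Atf3 is shown for the stress genes, with its match to TGACG, the core of the cyclic AMP response element, in capitals on the reverse strand. They lie at chr12:54203875-54204124 (minus strand), chr8:45999851-46000100 (minus strand), chr10:21993640-21993889 (plus strand, the 1 of 6 listed starts with a match) and chr1:191183334-191183583 (minus strand).
Egln3: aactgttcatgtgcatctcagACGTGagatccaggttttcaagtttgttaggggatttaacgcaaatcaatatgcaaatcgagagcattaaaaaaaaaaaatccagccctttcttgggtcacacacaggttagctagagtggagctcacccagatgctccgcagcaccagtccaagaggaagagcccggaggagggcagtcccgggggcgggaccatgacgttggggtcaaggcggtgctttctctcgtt
Ankrd37: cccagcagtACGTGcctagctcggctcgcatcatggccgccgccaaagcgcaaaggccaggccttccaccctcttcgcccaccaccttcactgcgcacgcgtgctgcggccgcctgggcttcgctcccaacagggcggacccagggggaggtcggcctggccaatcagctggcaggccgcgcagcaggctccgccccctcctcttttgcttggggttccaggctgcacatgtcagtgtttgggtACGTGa
Sgk1: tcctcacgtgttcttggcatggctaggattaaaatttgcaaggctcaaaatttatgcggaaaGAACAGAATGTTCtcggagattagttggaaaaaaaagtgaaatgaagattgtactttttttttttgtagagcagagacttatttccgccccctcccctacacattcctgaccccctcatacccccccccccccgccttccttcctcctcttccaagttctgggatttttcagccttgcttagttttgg
Atf3: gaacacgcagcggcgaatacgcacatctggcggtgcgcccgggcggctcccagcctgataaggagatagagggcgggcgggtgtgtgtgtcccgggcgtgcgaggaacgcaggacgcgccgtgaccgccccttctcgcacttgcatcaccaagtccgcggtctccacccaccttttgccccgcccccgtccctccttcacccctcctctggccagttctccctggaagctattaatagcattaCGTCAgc
Both strands of each 250-base window were searched. ACGTG was in the promoter of 14 of the 25 hypoxia and glycolysis genes with a RefSeq promoter, and in 18.5% of all 27025 genes. It was also in 7 of 15 glucocorticoid-responsive genes (46.7%), Sgk1 among them, and in 11 of 28 stress genes outside the gate (39.3%), so that it was not particular to the hypoxia list. Nor did it go with direction, as Vegfa, higher at P8, was among the 14, and Ndrg1 and Eno1, lower at P8, were not. The sequence CACGTG, an E-box that contains this core, was in 3 of the 25 and in 6.86% of all genes. The glucocorticoid response element was in 3 of 15 glucocorticoid-responsive genes (Sgk1, Txnip and Mt1) and in 0.44% of all genes. TGACG was in 4 of the 8 stress gate genes with a RefSeq promoter and in 19.8% of all genes, and the full element TGACGTCA, which contains it, in 1 of 8 and in 1.77%. TGACG was also in 6 of 15 glucocorticoid-responsive genes (40%) and in 7 of 25 hypoxia genes (28%), Sgk1 and Egln3 among them. These matches describe the sequence and show no binding.

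The level of the stress gate genes differed between the libraries. The share of a cell's UMIs that came from the 10 genes of the stress gate (Fos, Jun, Junb, Egr1, Ier2, Atf3, Hspa1a, Hspa1b, Dusp1 and Zfp36) had a median of 0.51% at E18.5, with 25% of cells under 0.266% and 25% over 0.848%. At P8 the median was 1.14%, with 25% of cells under 0.699% and 25% over 1.65%. The sorted E15.5 ECs had a median of 0.131%, and the whole lung E18.5 ECs 0.27% in the library labelled control and 0.318% in that labelled null. P8 was thus the highest of the 5 libraries. Of all ECs, 69.6% at E18.5 and 28.5% at P8 lay at or under 0.759%, the median over both libraries together, and are called low-stress cells below. Their own medians still differed, at 0.358% and 0.474%.

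**Figure D2:**
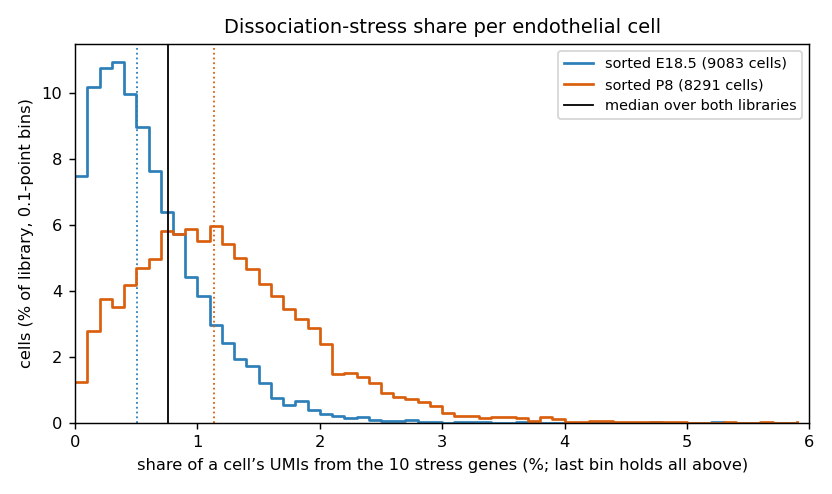
Distribution over ECs of the share of a cell's UMIs from the 10 stress gate genes (x axis, %), as the percentage of each library's cells in bins of 0.1 percentage points (y axis). Dotted lines mark the library medians, 0.51% at E18.5 (9083 cells) and 1.14% at P8 (8291 cells), and the solid line the median over both, 0.759%.

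The immediate early genes and the heat shock genes of the gate went in different directions. Atf3, a repressor and activator induced by many stresses, was at 120 CPM (118 to 123) at E18.5 and 708 CPM (702 to 715) at P8, a log2 ratio of 2.55. In the other libraries Atf3 was at 42.2 CPM (E15.5), 50.6 CPM (whole lung labelled control) and 37.7 CPM (labelled null), so that both sorted libraries of the comparison were above them. Egr1 was at 161 and 473 CPM (log2 1.56), Junb at 1039 and 2694 CPM (1.37) and Fos at 1155 and 2373 CPM (1.04). Jun, Ier2, Dusp1 and Zfp36 had log2 ratios of 0.78 to 0.99, under 2-fold. Hspa1a, which encodes the inducible chaperone HSP70, was lower at P8, at 411 CPM (406 to 416) at E18.5 and 232 CPM (228 to 236) at P8 (log2 -0.82), and Hspa1b at 120 and 63.2 CPM (-0.92). In the whole lung libraries Hspa1a was at only 4.41 and 4.68 CPM, and in sorted E15.5 ECs at 33.7 CPM. The sorted E18.5 library was therefore the highest of the 5 in Hspa1a, and P8 the highest in Atf3, Fos and Junb. Among 36 further stress genes outside the gate, 28 were tested, of which 8 were at least 2-fold higher at P8, none at least 2-fold lower, and the median log2 ratio was 0.61. Irf1, an interferon-induced transcription factor, was at 56.8 and 200 CPM (1.81), Ier3 at 614 and 1767 CPM (1.52), Socs3, a brake on cytokine signalling, at 273 and 755 CPM (1.47), Nr4a1 at 95 and 264 CPM (1.47) and Icam1, a leukocyte adhesion protein, at 88.3 and 207 CPM (1.22).

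The stress share was then used in 3 ways to set apart the genes that followed it. Within each library, cells were ranked by stress share into 3 groups of about equal size, and the highest group was set against the lowest (3028 cells each at E18.5 and 2764 each at P8). At P8, 66 of 3580 genes (1.84%) were at least 2-fold higher in the highest group and 29 (0.81%) lower, and at E18.5, 54 of 3469 (1.56%) and 6 (0.173%). The 10 gate genes define this split, while the 28 genes outside the gate had a median log2 ratio of 1.35 between these groups at E18.5 and 1.25 at P8, against -0.04 and -0.05 over all genes tested. Cells of the highest group also held more UMIs (medians of 6128 against 4954 at E18.5, and 5830 against 4824 at P8). Second, P8 was compared with E18.5 in low-stress cells only (6324 and 2363 cells). The median log2 ratio of the genes outside the gate was then 0.15, with 3 higher and 2 lower, and 169 of 3723 genes (4.54%) were higher and 147 (3.95%) lower in all. The gate genes themselves chose these cells, and their values there are a description. Atf3 was at 1.64, Egr1 at 1.09, Junb at 0.68, Fos at 0.18 and Hspa1a at -1.81. Last, the P8 cells were weighted so that their stress share had the distribution found at E18.5. This gave 165 genes (4.45%) higher and 138 (3.72%) lower of 3711, a median of 0.10 outside the gate, and, for the gate genes that set the weights, log2 ratios of 1.40 for Atf3, 0.55 for Egr1, 0.52 for Junb, -0.03 for Fos, -1.75 for Hspa1a and -1.61 for Hspa1b.

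Most of the genes that were higher at P8 did not follow the stress share. Of the 191 genes, 156 were still at least 2-fold higher after the weighting, 157 in low-stress cells and 151 in both. The 8 of them among the stress genes outside the gate had a median log2 ratio of 1.43 before and 0.68 after the weighting, and 1 of these 8 was still past 2-fold. The 4 that are gate genes set the weights, and their medians of 1.46 and 0.54 are in part fixed by that. The 179 in neither stress list had medians of 1.37 and 1.38, and 154 were still past 2-fold. Of the 139 genes that were lower at P8, 128 were still past 2-fold after the weighting, of which all 128 were also past it in low-stress cells. Genes in neither stress list that were at least 2-fold higher at P8 and also at least 2-fold higher in the highest than in the lowest stress group of P8 cells were 12 in number. Among them were Apold1, Phlda1, Cdkn1a, Lmcd1, Ier5l, Fmo2, Plac8, Map3k8, Klf4, Sertad1 and the gene model Gm26532, and they were picked out after their values were seen. Cdkn1a, a cell cycle inhibitor and a target of p53 and of glucocorticoids, was at 110.4 and 249 CPM, and its log2 ratio went from 1.17 in all cells to 0.64 in low-stress cells, and Klf4, a flow-induced transcription factor, from 1.05 to 0.76. Plac8, in contrast, was at 10.98 and 222 CPM (4.28) and kept a log2 ratio of 3.95 in low-stress cells. Both comparisons use the share of single cells, so a stress response common to all P8 cells could remain in them. Atf3, itself a gate gene, kept log2 ratios of 1.64 in low-stress cells and 1.40 after the weighting. Staying past 2-fold therefore does not separate a gene from dissociation stress. Whether the stress share reflects the handling of the 2 preparations or the age of the animals was not tested.

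**Figure D3:**
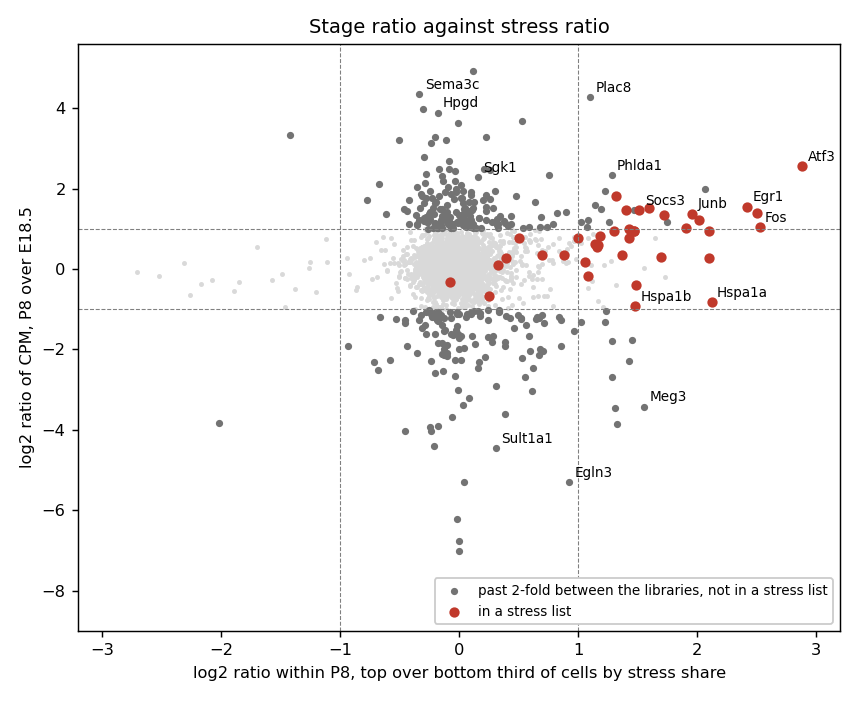
Log2 ratio of P8 over E18.5 for each of the 3681 genes (y axis) against the log2 ratio of the highest over the lowest group of P8 cells by stress share (x axis), with dashed lines at 2-fold and 2 genes beyond the x axis range. Genes of the stress lists (red) lie mostly to the right, Atf3 at 2.88 and 2.55, while Sema3c, Hpgd, Egln3 and Sult1a1 lie within 2-fold of the middle on the x axis and far from it on the y axis.

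The genes with the largest ratios had different roles. Genes that share sequence near their 3′ end with another gene are given separately below. Sema3c (chr5:17574281-17730268), a secreted guidance protein that was on the list of general capillary markers, was at 19.5 CPM (18.4 to 20.6) at E18.5 and 407 CPM (402 to 412) at P8. That was 20.4-fold higher after the 0.5 CPM was added, with 0.399 CPM at E15.5 and 8.59 and 11.2 CPM in the whole lung libraries labelled control and null, so that the level was higher at each later age and P8 stood apart. Hpgd (chr8:56294585-56321043), the enzyme that inactivates prostaglandin E2, was at 119 CPM (117 to 122) and 1774 CPM (1764 to 1785), 14.8-fold higher on the same scale, and at 154, 42.6 and 83.7 CPM in the same other libraries. When each cell was thinned to 2000 UMIs, leaving 8935 cells at E18.5 and 8077 at P8, the share of ECs with a Hpgd UMI was 17.8% and 83.7%, against 3.29% of 243 and 7.41% of 54 collagen-positive cells of the same libraries, which were taken for comparison and not chosen for lacking the gene. The share with Sema3c was 3.45% and 42.6% (5.76% and 14.8% in collagen-positive cells), and at E18.5 it did not exceed theirs. Tmem100, a membrane protein downstream of BMP9 and ALK1, was at 385 and 1765 CPM (log2 2.20), and found in 44.7% and 93.8% of thinned ECs against 6.17% and 12.96% of the collagen-positive cells. Fmo1, a flavin monooxygenase, was at 99.99 and 546 CPM (2.44), after 1.52 CPM at E15.5. The thinned E18.5 share of ECs was also under that of collagen-positive cells for Fmo1 (15.99% against 18.5%), Plac8 (1.39% against 6.17%) and Atf3 (12.6% against 21.8%). The same held for Igfbp3 (7.42% against 12.3%) and Fabp4 (11.1% against 19.8%). As the collagen-positive cells were not chosen for lacking these genes, their shares are no measure of background, and expression in ECs is not judged from them. Fabp4 and Igfbp3 were concentrated in few cells, and 300 ECs at E18.5 and 17 at P8 held at least 3 UMIs of Igfbp3, 64.6% and 57.0% of its UMIs. Plat, tissue plasminogen activator, was at 18.2 and 104 CPM (2.48), Esm1, a proteoglycan of tip cells, at 14.8 and 85.2 CPM (2.49), and the neurotrophin receptor gene Ntrk2 at 16.7 and 87.3 CPM (2.35). The further genes among the 12 largest without a shared 3′ end were Plac8, Aard (3.99), Abi3bp (3.69), Casc4 (3.29), Adam23 (3.22), Atf3, Pllp (2.48) and Camk2n1 (2.48). Plac8 was concentrated in a part of the cells, with at least 5 UMIs in 0.341% of ECs at E18.5 and 11.8% at P8.

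At the other end, Egln3 (chr12:54178981-54203860) had the lowest ratio of the genes without a shared 3′ end or sex linkage. Egln3, a prolyl hydroxylase that marks HIF for degradation and is itself induced by hypoxia, was at 53.5 CPM (51.6 to 55.4) at E18.5 and 0.863 CPM (0.646 to 1.13) at P8, 39.6-fold lower on the same scale. The 3 other libraries had 28.3 CPM (E15.5), 57.5 CPM (whole lung labelled control) and 76.3 CPM (labelled null), so that P8 alone was near 0. A UMI of Egln3 was found in 9.66% and 0.198% of thinned ECs and in 7.41% and 1.85% of the collagen-positive cells, so that its share at E18.5 was close to theirs and is not read on its own. Sult1a1 (chr7:126672865-126676432), a sulfotransferase for phenols and steroids, was at 137 and 5.76 CPM (log2 -4.46), and was low at E15.5 as well (6.32 CPM), with 129 and 106 CPM in the whole lungs labelled control and null. Ccdc85b was at 122 and 5.32 CPM (-4.39), Igfbp3, a binding protein for insulin-like growth factors, at 67.1 and 3.94 CPM (-3.93), and Mdk, the growth factor midkine, at 83.0 and 9.69 CPM (-3.03). Lpar4, a lysophosphatidic acid receptor, was at 135 and 16.2 CPM (-3.02) after 354 CPM at E15.5. Lmo1 (-3.85), AU015791 (-3.61), Meg3 (-3.43), Itm2a (-2.90), Gsn (-2.69) and Dkk2 (-2.68) made up the 12. Among abundant genes Sparcl1, a matricellular protein, was at 1798 CPM (1787 to 1809) and 369 CPM (364 to 374), with 1737 and 1813 CPM in the whole lungs and 475 CPM at E15.5. It was highest in the 3 E18.5 libraries.

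**Figure D4:**
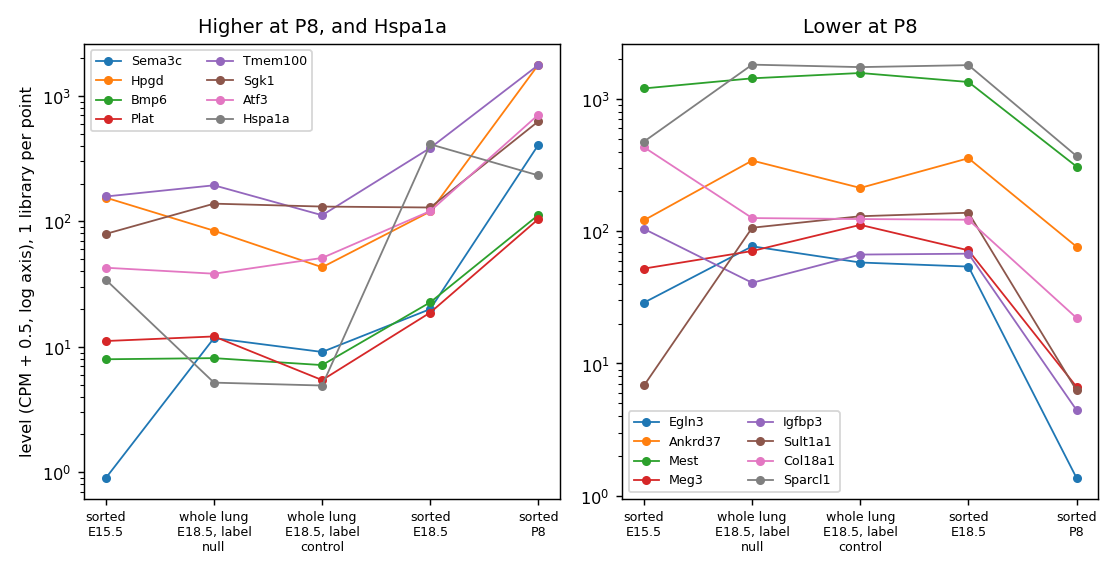
Levels of 16 genes in the ECs of 5 libraries (x axis), in CPM plus 0.5 on a log axis, 1 library per point, with lines that only join the points of a gene. On the left, Sema3c, Hpgd, Bmp6, Plat, Tmem100, Sgk1 and Atf3 are highest at P8 while Hspa1a is highest in sorted E18.5 ECs (411 CPM), and on the right P8 is the lowest of the 3 ages for Egln3, Ankrd37, Mest, Meg3, Igfbp3, Col18a1, Sparcl1 and, narrowly below E15.5, Sult1a1.

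Among the lists with at least 5 genes tested, fetal growth and imprinted genes had the lowest median. Of its 24 genes 9 were tested, with 6 lower, 1 higher and a median log2 ratio of -1.54, against 3.78% lower, 5.19% higher and a median of 0.09 over all genes. In low-stress cells the median was -1.72, with 5 lower. Meg3, a maternally expressed noncoding RNA, was at 71.1 and 6.16 CPM (-3.43), H19, the noncoding RNA next to Igf2, at 323 and 56.7 CPM (-2.50), and Mest, a paternally expressed hydrolase, at 1340 CPM (1331 to 1350) and 307 CPM (303 to 312) (-2.12). Grb10, an adaptor that dampens insulin signalling, was at 180 and 49.7 CPM (-1.84), Cdkn1c, an inhibitor of cell cycle entry, at 459 and 158 CPM (-1.54) and Igf2r, the receptor that clears IGF2, at 56.6 and 27.4 CPM (-1.03, and -0.89 in low-stress cells). H19 was at -3.33 in arterial-high, -1.54 in aerocyte-side and -1.14 in other capillary-side cells, classes defined below, and within 2-fold in cells with under 2 arterial and under 2 aerocyte UMIs. The exception to the direction was Peg3, a paternally expressed zinc finger gene, at 68.2 and 235 CPM (1.78). The levels of Mest in the whole lungs, 1568 and 1429 CPM, were close to that of sorted E18.5 ECs. Of 3 tested genes of the cell cycle gate none was past 2-fold (median -0.28, but 0.35 in low-stress cells and 0.21 after the weighting), of 16 further cell cycle genes 1 was higher and 1 lower, both with shared 3′ ends, and cells with at least 2 UMIs of these genes were 10.6% of ECs at E18.5 and 8.93% at P8, at unequal median depths of 8709 and 10934 UMIs.

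The counts of this and the following lists stand beside 3.78% lower and 5.19% higher over all 3681 genes. Of 24 basement membrane genes 17 were tested, 8 were at least 2-fold lower at P8, none was higher and 9 were within 2-fold, with a median log2 ratio of -0.94 (-0.80 in low-stress cells, 7 lower). The summed level of the list was nearly the same, at 6732 and 6497 CPM. Col18a1, whose fragment is endostatin, was at 122 and 21.6 CPM (-2.47), the laminin chain Lamb1 at 54.3 and 10.5 CPM (-2.31), nidogen 2 (Nid2) at 67.5 and 13.7 CPM (-2.26) and perlecan (Hspg2) at 125 and 32.9 CPM (-1.92). Bgn, which was also on the list of mesenchymal markers, Emilin1, Lama4 and Agrn had log2 ratios of -1.75 to -1.14. Collagen IV, the network-forming chains Col4a1 and Col4a2, was at 886 and 1076 CPM (0.28) and 551 and 657 CPM (0.25), and Sparc at 2772 and 3232 CPM (0.22). Lamb1 and Nid2 were lower by more in aerocyte-side cells (-2.99 and -2.61) than in arterial-high cells (-1.43 and -1.49), classes that are defined below. Col18a1 went the other way (-1.65 and -2.62) and Hspg2 was nearly equal (-1.85 and -1.80).

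Hypoxia and glycolysis genes had a median log2 ratio of -0.69 over 16 tested of 28, with 4 lower and 1 higher. Besides Egln3, Ankrd37, a hypoxia-induced ankyrin protein, was at 355 CPM (351 to 360) and 75.8 CPM (73.6 to 78.0) (-2.22), and Ndrg1, another hypoxia-induced gene, at 124 and 29.7 CPM (-2.04). Ankrd37 was at 121 CPM at E15.5 and at 212 and 341 CPM in the whole lungs labelled control and null. The fourth was the glycolytic enzyme gene Eno1, at 159 and 10.1 CPM, which has a processed copy and is uncertain. Of the 16, 9 share 3′ sequence with other genes, glycolytic enzymes such as Gapdh and Pkm among them, and 3 of the remaining 7 were lower and 1 higher. Egln1, the constitutive oxygen sensor, was at 128 and 82.2 CPM (-0.63). Vegfa, the endothelial growth factor that hypoxia also induces, was higher, at 53.0 CPM (51.1 to 54.9) and 206 CPM (203 to 210) (1.95), and higher in arterial-high, aerocyte-side and other capillary-side cells alike (1.73, 2.30 and 2.41). A UMI of Vegfa was found in 9.40% and 33.0% of thinned ECs and in 12.3% and 24.1% of the collagen-positive cells, so that the E18.5 share was not above theirs. The antioxidant genes (13 tested, 1 lower and none higher, median 0.12) and the oxidative phosphorylation genes (40 tested, 1 lower and none higher, median 0.02) were near the values over all genes. Sod1, superoxide dismutase, was at 143 and 266 CPM (0.90), with a shared 3′ end.

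Glucocorticoid-responsive genes were past 2-fold in both directions. Of 18 genes 9 were tested, 5 higher and 1 lower, with a median log2 ratio of 1.02 that came to 0.64 in low-stress cells (2 higher and 2 lower) and 0.63 after the weighting. With a minimum of 10 CPM in place of 50 CPM, 5 were higher and 6 lower, so that the balance of the list turned. Cdkn1a, given above, was among the 5. Sgk1, a kinase that promotes sodium transport, was at 128 CPM (126 to 131) and 627 CPM (621 to 633) (2.28), and at 2.56 in low-stress cells. Its levels in the 3 other libraries were 78.9 to 138 CPM, so that P8 stood alone. Errfi1 was at 25.3 and 81.4 CPM (1.67, and 1.45 in low-stress cells), Klf9 at 41.8 and 113 CPM (1.43 and 0.99) and Glul, glutamine synthetase, at 141 and 287 CPM (1.02 and 0.96), with a shared 3′ end. Tsc22d3, the widely used reporter GILZ, was at 166 and 140.5 CPM (-0.24) and the receptor gene Nr3c1 at 91.9 and 137 CPM (0.57). Txnip, which binds thioredoxin, was lower, at 805 and 368 CPM (-1.13). Flow-responsive genes (8 tested, 2 higher and none lower, median 0.48) held no gene past 2-fold once the ratios were centred on the median of all genes, where Klf4 came to 0.968 and Aqp1 to 0.929. Klf2 was at 2120 and 3332 CPM (0.65, and 0.31 in low-stress cells) and in the highest stress group of P8 cells 1.02 above the lowest on the log2 scale, whereas Aqp1, a water channel, was at 331 and 670 CPM (1.01, and 1.09 in low-stress cells).

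**Figure D5:**
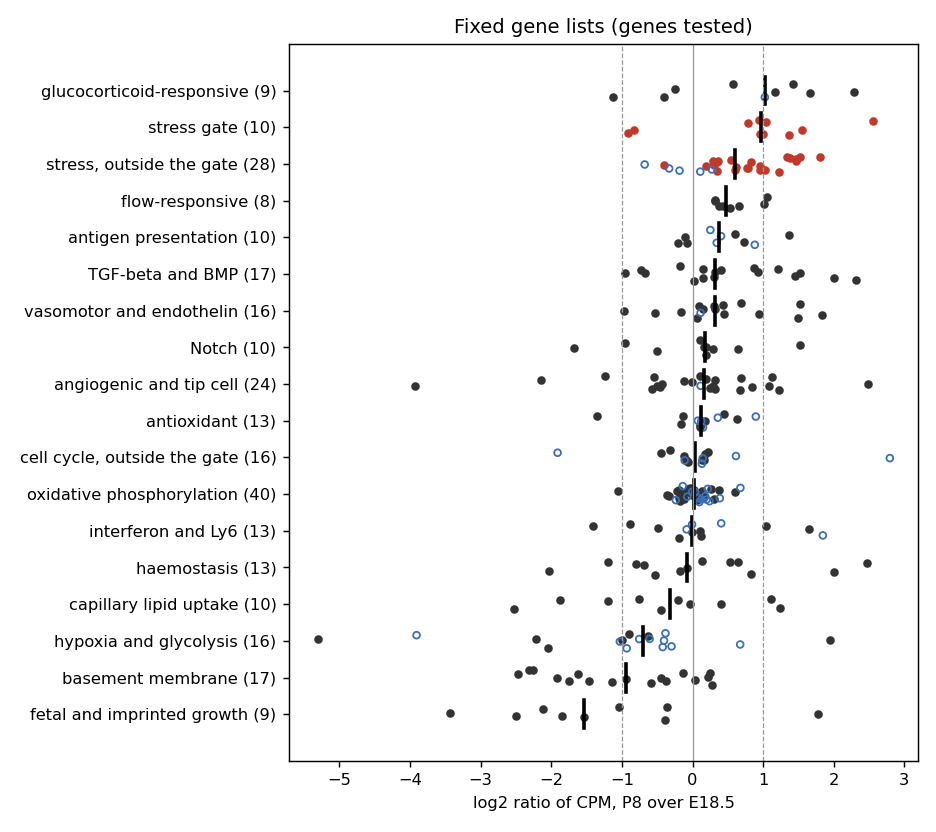
Log2 ratio of P8 over E18.5 (x axis) for each tested gene of the stress and functional gene lists with at least 5 genes tested. The y axis gives the lists with the number tested in parentheses. A bar marks each list's median, and lines lie at 0 and at 2-fold. Lists of cell type markers and of arterial genes are not plotted. Red points are stress genes and blue rings genes that share 3′ sequence with another gene, and the medians run from -1.54 for fetal and imprinted growth to 1.02 for glucocorticoid-responsive genes.

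Of 28 genes of BMP and TGF-beta signalling 17 were tested, 5 were higher and none lower, with a median of 0.33. Bambi, a decoy receptor, was at 124 and 63.6 CPM (-0.96), just inside 2-fold, and at -1.20 in low-stress cells. Bmp6, a ligand made by ECs, was at 22.1 CPM (20.9 to 23.4) and 112 CPM (109 to 115) (2.31), and the receptor gene Bmpr2, mutated in heritable pulmonary hypertension, at 160 and 462 CPM (1.53). The inhibitory SMAD gene Smad6 was at 107 and 248 CPM (1.21) and the corepressor gene Skil at 57.8 and 159 CPM (1.45). In low-stress cells these 4 had log2 ratios of 1.23 to 2.44. The coreceptor endoglin (Eng) was at 228 and 433 CPM (0.92) and the BMP targets Id1, Id2 and Id3 were at 0.31 to 0.40. Among vasomotor genes (16 tested, 3 higher, none lower, median 0.31), Pde3a, a phosphodiesterase that ends cyclic nucleotide signals, was at 55.6 and 199 CPM (1.83) and Ddah1, which degrades an inhibitor of nitric oxide synthase, at 65.6 and 186 CPM (1.498). Edn1, endothelin 1, was at 302 and 409 CPM (0.43), Ace at 556 and 581 CPM (0.06) and caveolin 1 (Cav1) at 1571 and 803 CPM (-0.97).

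Capillary markers and angiogenic genes were past 2-fold in both directions. Of 9 general capillary markers, all tested, 3 were higher and 1 lower. The higher ones were Sema3c, the adhesion gene Cadm1 (26.1 and 60.4 CPM, 1.19) and Gpihbp1. Gpihbp1, the protein that anchors lipoprotein lipase on capillaries, was at 446 and 965 CPM (1.11), while Lpl, the lipase itself, was at 77.9 and 33.6 CPM (-1.20). In the whole lungs labelled control and null Gpihbp1 was at 795 and 743 CPM, nearer to P8 than to sorted E18.5 ECs. On other lists, the fatty acid transporter Cd36 was at 263 and 620 CPM (1.23). The whole lung labelled control had 380 CPM of Cd36, within 2-fold of P8 (0.71), and that labelled null 301 CPM. Of 7 aerocyte markers 4 were tested, 2 higher and none lower, with a median of 0.66. The higher ones were Apln, given below, and the carbonic anhydrase Car4, at 91.5 and 270 CPM (1.56), after 0.514 CPM at E15.5. Ednrb (169 and 181 CPM, 0.09) and Tbx2 (88.9 and 87.2 CPM, -0.03) were nearly equal. The fatty acid binding proteins Fabp4 and Fabp5 were at 425 and 73.1 CPM (-2.53) and at 242 and 65.3 CPM (-1.88). Fabp4 was carried by few cells, with at least 10 UMIs in 537 ECs at E18.5 and 25 at P8, which held 90.3% and 96.7% of its UMIs. Of 24 angiogenic and tip cell genes tested, 4 were higher and 3 lower, with a median of 0.16. Esm1 and the ligand gene Apln (28.6 and 67.7 CPM, 1.23) were higher with the receptor genes Ackr3 (51.9 and 114 CPM, 1.12) and Cxcr4 (32.7 and 70.1 CPM, 1.09). Apln was within 2-fold as a mean of per-cell CPM (0.914) and in thinned cells (0.935). Igfbp3, Trp53i11 (108 and 23.9 CPM, -2.15) and Vegfc (69.1 and 29.1 CPM, -1.23) were lower. Vegfc was at 30.5 and 44.4 CPM in the whole lungs labelled control and null, and P8 was within 2-fold of both (-0.07 and -0.60). Kdr and Flt1, receptors for VEGF, were within 2-fold at 0.20 and 0.24. In the remaining lists, haemostasis genes were 2 higher and 2 lower of 13 (median -0.08), with Procr, the protein C receptor, at 72.7 and 17.3 CPM (-2.04). Antigen presentation genes were 1 higher of 10 (median 0.37), interferon and Ly6 genes 3 higher and 1 lower of 13 (-0.01), and Notch genes 1 higher (the feedback inhibitor Nrarp, 55.9 and 162 CPM, 1.53) and 1 lower (Jag1, 93.0 and 28.8 CPM, -1.67) of 10 (0.18).

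The stage ratios were also taken within classes of ECs. Classes were set by UMIs of arterial genes (Gja4, Gja5, Hey1, Bmx and Dkk2) and of aerocyte genes (Ednrb, Tbx2 and Fibin) in cells with under 2 cell cycle UMIs, with limits chosen after the data were seen. Arterial-high cells (at least 10 arterial and under 4 aerocyte UMIs) were 35.1% of ECs at E18.5 (3191 cells) and 23.2% at P8 (1923). Aerocyte-side cells (at most 4 arterial and at least 4 aerocyte UMIs) were 8.598% and 6.19% (781 and 513 cells), and other capillary-side cells (at most 4 arterial and at most 1 aerocyte UMI) 20.7% and 25.4% (1876 and 2102 cells). These are ranges of a count and not cell types. The other capillary-side class was set by low counts alone, without a capillary marker. Ccl21a, a lymphatic gene with a shared 3′ end, was at 279 CPM in E18.5 cells of that class, against 0.103 CPM in its P8 cells. Fabp4 went from 573 to 56.6 CPM there (log2 -3.33), with log2 ratios of -4.17 in arterial-high and -1.72 in aerocyte-side cells. The part of lymphatic or Fabp4-high cells in the ratios of this class was not tested. There were 554 and 587 cells at 10 or 11 arterial UMIs and 581 and 749 at 8 or 9, and 24.99% and 36.3% of ECs fell in no class. Because Gja5 and Dkk2 differed between the libraries, the shares were not compared. Within arterial-high cells 230 of 3690 genes (6.23%) were higher and 164 (4.44%) lower, within aerocyte-side cells 185 of 3657 (5.06%) and 146 (3.99%), and within other capillary-side cells 195 of 3636 (5.36%) and 134 (3.69%). Hpgd had log2 ratios of 4.01, 3.22 and 4.14 in the arterial-high, aerocyte-side and other capillary-side cells, Bmp6 2.15, 2.17 and 2.66, Egln3 -5.07, -5.51 and -5.55, and Sult1a1 -4.00, -5.62 and -5.01. For other genes the 3 classes were uneven. Sema3c was at 5.87, 2.88 and 4.46, as its arterial-high level at E18.5 was only 4.38 CPM. Gpihbp1 was at 2.26, 0.27 and 0.72, and Lpl at -0.19, -1.64 and -2.10. Jag1, a Notch ligand of arteries, was past 2-fold lower in arterial-high cells and not in the other classes, at -2.13, -0.25 and 0.14, and Dkk2, one of the genes that set the classes, was at -2.48, 0.15 and -0.83. Dkk2 was at only 0.380 and 0.474 CPM in aerocyte-side cells and at 3.30 and 1.64 CPM in other capillary-side cells. Its ratios in these 2 classes are therefore not read. Jag1 and Dkk2 were lower in the whole lung labelled control (31.3 CPM of Jag1 and 17.6 CPM of Dkk2) than in sorted E18.5 ECs, and P8 was within 2-fold of that library. In the whole lung labelled null Jag1 was at 58.0 CPM and Dkk2 at 31.8 CPM, and the log2 ratios of P8 over it were -0.999 and -1.36. No gene at 50 CPM or more was past 2-fold in opposite directions in arterial-high and other capillary-side cells.

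Genes with near-identical copies stood apart in the P8 library. Reads of these genes can be split between copies or dropped, and a gene was marked where at least 10% of the 50-base windows in the last 500 bases of its transcripts also occur in another gene. Of the marked genes, 30 (5.54%) were at least 2-fold higher at P8 and 34 (6.27%) lower. Past 8-fold in either direction were 2.95% of the 542 marked genes and 0.605% of the 3139 others. Ubb, a polyubiquitin gene, was at 2236 and 241 CPM, whereas the gene model Gm8797, which shares its sequence, was at 77.1 and 2382 CPM. The sum of both was 2313 and 2623 CPM (log2 0.18). The ribosomal protein genes Rpl35 and Rpl10 were at 1508 and 118 CPM and at 1492 and 143 CPM, and adding the partner gene with shared sequence left sums of 1560 and 121 CPM and of 1519 and 246 CPM. Ubb was at 1706 to 2088 CPM and Rpl35 at 1481 to 1761 CPM in the 3 other libraries, so that P8 alone differed. The largest ratios of marked genes among those named by rule (Nme2 3.65, Ftl1-ps1 3.28, Rnaset2a 3.22, Bloc1s1 3.15, Pcna 2.79, Clca3a1 -5.31, Eno1 -3.91, Hist1h2ap -3.84, Ccl21a -3.41 and Ubb -3.21) are uncertain as changes of these genes, and the cause was not tested. A difference in counting between the libraries could also touch genes without the mark, such as Ccdc85b and Casc4 (7.34% of windows shared), and this was not tested. Ccl21a, a chemokine gene of lymphatic endothelium, was at 170.2 and 15.6 CPM, and at least 10 UMIs of it were found in 105 and 3 ECs. The 5 other lymphatic markers summed to 455 and 363 CPM, and Ccl21a was not part of that sum. Without marked genes, 161 of 3139 (5.13%) were higher and 105 (3.35%) lower. The pools also differed in sex. The Y-linked genes Eif2s3y and Ddx3y were at 64.4 and 54.3 CPM at E18.5 and had 0 UMIs at P8, which allows a level of up to 0.0488 CPM at a limit of 3 counts and of up to 0.0601 CPM by the exact Poisson interval, and Xist, expressed from the inactive X chromosome, was at 244 and 945 CPM. In the whole lungs labelled control and null, Xist was at 0 and 682 CPM and Eif2s3y at 80.7 and 47.3 CPM. A part of sex in other ratios, those over the whole lungs included, was not tested.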

How the data were processed

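Single-cell suspensions were run on the 10x 3′ v3 platform, and the deposited matrices hold raw UMI counts per gene and cell, which the authors made on build mm10 with Cell Ranger, version 3.1 per the notes and 3.0.2 per the file headers of the sorted E15.5, E18.5 and P8 libraries. The submitters' notes also name Seurat 3.2.2, which was not used for these matrices. Counts of 31053 genes were read with Python 3.11.15 and scanpy 1.11.5, ECs were chosen by the stated limits, and their UMIs were summed per library and divided by the summed total to give CPM. With 1 library a side no p-value was computed, and intervals were exact Poisson intervals (95%). EC totals of 58924065 and 61412611 UMIs set the precision. The calculation was tested on simulated data. Scrublet called 0 doublets in either library, so it has not worked here, and no doublets were removed from the main result.

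The members, gene lists and class limits were chosen with earlier results of these data known. Genes were named as the 12 with the highest and the 12 with the lowest log2 ratio, without the genes of the rule, gene models, sex-linked genes and those for haemoglobin, mitochondrial RNA and ribosomal proteins, with up to 4 genes of each list that had the largest ratios and the 10 stress gate genes. The 12 at each end were also taken among genes without a shared 3′ end. Further list members and genes outside these rules, such as Tmem100, Fmo1, Ntrk2 and Sparcl1, were named after their values were seen. Gene positions, and the transcripts searched for shared 3′ ends, are those of GENCODE, and promoters are those of RefSeq in build GRCm38.p6. Alternatives changed the scaling, added constant, minimum level, cell filters, cell classes, stress weighting and the E18.5 library. Sorted E13.5 cells were not used here. Some genes of the lists are not reported here.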

Additional observations from a re-analysis of the deposited data

How the results depend on the processing

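The counts of 191 genes higher and 139 lower at P8 became 359 and 351 genes with a minimum of 10 CPM in place of 50 CPM, where more genes were tested. They became 333 and 210 of 3750 when the whole lung library labelled control replaced the sorted E18.5 library, and the cause was not tested. Under all other alternatives they lay between 161 and 279 higher and between 105 and 183 lower. Of 86 named genes past 2-fold, 75 to 86 were still past it under each alternative run on all of them. Low-stress cells left 77 and the weighting of the stress share, added after seeing the data, left 76. A sign changed in 6 cases. Fos came to -0.034 under the stress weighting. In cells with under 2 arterial and under 2 aerocyte UMIs Jag1 came to 0.28 and Dkk2 to 0.063. In the classes added after seeing the data, Dkk2 came to 0.15 in aerocyte-side cells, and Apln to -0.083 and Jag1 to 0.14 in other capillary-side cells. Dkk2 is among the genes that chose the cells in both of its cases, and was at only 0.380 and 0.474 CPM in aerocyte-side cells. Its changes of sign are therefore not read. Removing the cells with the highest 5% of Scrublet scores gave 190 and 141 genes. No paired analysis was possible because each group held 1 library. The counting intervals cover neither animals nor preparations, and spread between libraries of 1 age could not be measured.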
